A study of Arabidopsis thaliana with 8 samples.

Results

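The SR splicing factor genes are 10 Arabidopsis thaliana genes chosen by locus, SR30, SR34, RS31, RS40, RS41, SCL33, SCL30A, SR45, RS2Z33 and SC35. All 10 were found among the 20690 genes listed in the data, and all 10 were listed in every library. Leaf polyadenylated RNA of the Col-0 ecotype was sequenced from 4 libraries of wild type (WT) and 4 of the genotype ABI3:MTA (mta), each from leaves 5 to 9 of plants 4 weeks old, collected 4 hours after first light, the plants having grown at 22 °C under 16 hours of light and 8 of dark. MTA catalyses the methylation of adenosine in messenger RNA to N6-methyladenosine (m6A). In ABI3:MTA plants MTA is expressed from the promoter of ABI3, an embryo-active gene, so that plants without a working resident MTA gene survive embryo development. No other treatment or allele is given for either genotype, and whether each library came from its own plants is not in the labels, so p-values cover the spread among these libraries alone, which can be technical in part. The question put to the data is how the transcript levels of the SR family compare between leaves of the genotypes.

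SR proteins are RNA-binding proteins with an RNA recognition motif and a domain rich in arginine and serine. They bind exons and introns of pre-mRNA, recruit the U1 particle and the U2 auxiliary factor to splice sites, and so take part in both constitutive and alternative splicing. Plants have an enlarged set, with subfamilies that animals lack, and many of its pre-mRNAs are themselves alternatively spliced, often into isoforms with premature stop codons that nonsense-mediated decay removes. The values here are 1 number per gene, so productive and unproductive isoforms are summed and a shift between them would not be seen.

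The libraries listed 19204 to 19716 genes and held 17132896 to 25377346 reads in genes, if the smallest step between deposited values is 1 read. The deposited values are whole multiples of 1 step per library, as counts divided by 1 factor would be, and after a further scaling they are called normalised read counts below. MTA itself (AT4G10760) had normalised read counts of 66.4, 84.6, 70.4 and 68.8 in WT and 41.2, 61.2, 59.3 and 42.4 in mta, in order of replicate. All mta values lay below all WT values (log2 fold change -0.52, SE 0.15, limma adjusted p = 0.0306), although the call was lost when WT 2, WT 3, WT 4 or mta 1 was left out (limma adjusted p of 0.0536 to 0.0929), and also without WT 1, mta 1 and mta 4 together (0.0664), with upper-quartile factors (0.0501) and with WT 2 and WT 3 averaged (0.072). These values do not separate the resident gene from the transgene. No library listed ABI3 (AT3G24650). Mesophyll marker genes (4 of 4 listed) summed to 179709 to 211551 in WT and to 234710.0 to 428256 in mta. Vasculature markers (6 of 6 listed) summed to 1313 to 1482 and to 1526 to 1839.6, and epidermis and guard cell markers (7 of 7 listed) to 1885 to 2016 and to 1800.1 to 2111. Of 7 flower, seed and root markers, AP3, CRA1, OLE1 and RHD6 were not listed, and the others summed to 2.09 to 2.87 in WT and to 4.44 to 6.63 in mta. AG, the only tested gene of that list, was called higher. The epidermis and guard cell sum is mostly KCS10 (1353 in WT and 1218 in mta), the 1 gene of that list with a negative log2 fold change, and PDF1, FAMA and MYB60 were called higher (log2 fold changes 1.24, 0.47 and 0.51). Of the 4 mesophyll markers 2 were called higher, and of the 6 vasculature markers 1. These counts, and the 3 of 7 epidermis and guard cell markers, stand beside 13.1% of all tested genes called higher. The mesophyll sum is mostly RBCS1A (134884 in WT and 252061 in mta), and CAB3 and LHCB2.1 overlapped between the genotypes. The vasculature sum is mostly SUC2 (895 and 1132). Of the other vasculature markers only APL did not overlap, and SULTR2;2 had a negative log2 fold change (-0.12). The flower, seed and root sum is mostly AG (2.55 and 5.17), close to the listing threshold of 1. The mesophyll, vasculature and flower, seed and root sums were all higher in mta without overlap, and the part of these marker differences in the results on SR genes was not tested. A change in the number of cells of a type and a change in RNA per cell cannot be told apart in these bulk samples.

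The estimated differences of SR splicing factor transcripts between the genotypes were small. The 95% intervals of RS40, RS2Z33 and SR30 still reached down to 0.70, 0.71 and 0.72 times the WT level. Of the 10 genes, 1 fell, 0 rose and 9 did not pass the test, against 26.2% of the 18328 genes tested that passed in either direction and 13.1% that passed as lower (limma, Benjamini-Hochberg adjusted p under 0.05 over all tested genes). The gene that fell was RS40. The 10 genes had a median of -0.095 on the log2 scale of fold changes, against -0.018 for all tested genes, and ran from -0.30 to 0.18. Of the 10 log2 fold changes 8 were negative and 2 positive, beside 9567 negative and 8761 positive among all tested genes. The size of the log2 fold change, whatever its sign, had a median of 0.14 over the 10 genes and of 0.25 over all tested genes. These sets were not matched for level. The 10 genes lay between the 59.0th and 91.5th percentile per kb in WT, while the tested genes reach down to the filter value of 3. The genotypes did not overlap for RS40 and SCL33, 2 of 10 genes, while 28.4% of all tested genes had genotypes that did not overlap, 14.7% with mta lower and 13.7% with mta higher. Without WT 1, mta 1 and mta 4, which had the strongest trends along transcript length, 2 of the 10 genes passed, RS40 as lower and SCL33 as higher, where 46.4% of all tested genes passed.

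**Figure D1:**
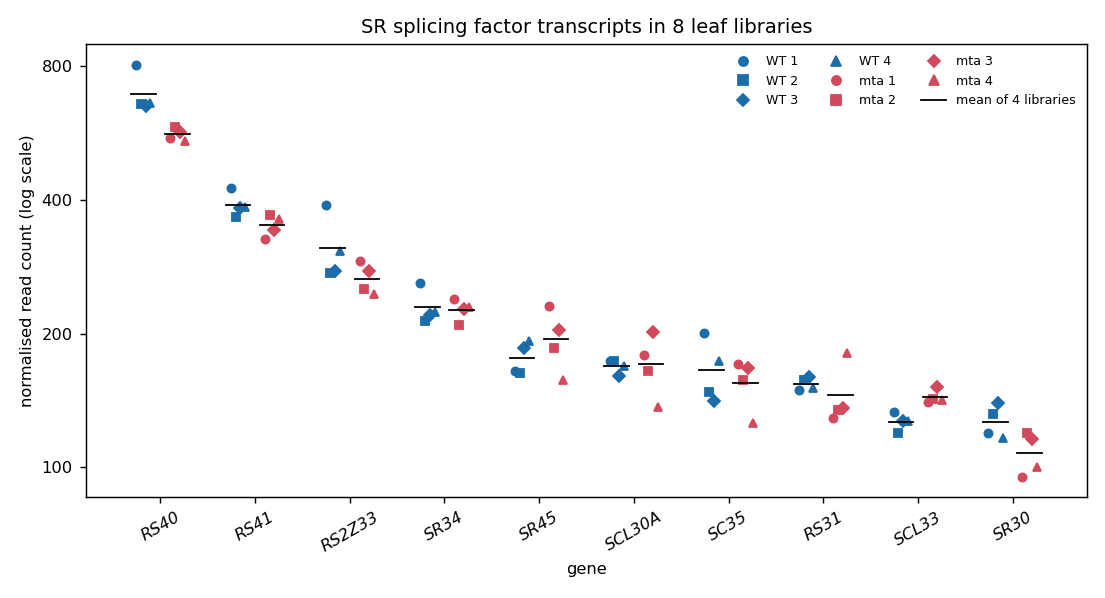
Normalised read count (log axis) of each SR splicing factor gene in each of the 8 libraries, WT in blue and mta in red, with a marker shape for each replicate number and a black line at the mean of 4 libraries. RS40 lies between 653 and 808 in WT and between 544 and 583 in mta, while for SR34 and SCL30A the genotypes lie over each other.

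The plant-specific RS subfamily, whose proteins carry a pair of RNA recognition motifs and a C-terminal domain rich in arginine and serine, held the gene that passed the test. RS40 (AT4G25500) had normalised read counts of 808, 657, 653 and 663 in WT and of 551, 583, 569.5 and 544 in mta. Every mta library lay below every WT library, and WT 1 stood above the other WT libraries. The means were 695 ± 75.2 in WT and 562 ± 17.7 in mta (SD, n = 4 each). The log2 fold change was -0.30 (SE 0.0950, 95% interval -0.51 to -0.092, limma adjusted p = 0.0382). Without WT 1 the log2 fold change of RS40 was -0.26 (limma adjusted p = 0.0228). The call ended without WT 2, WT 3, WT 4, mta 2 or mta 3, at limma adjusted p-values of 0.0625 to 0.0866 and log2 fold changes of -0.30 to -0.33, and it also ended with upper-quartile factors (log2 fold change -0.24, limma adjusted p = 0.0854).

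RS41 (AT5G52040), the closest relative of RS40, had counts of 426, 367, 383 and 386 in WT and 328, 370.1, 342 and 363 in mta. In 3 mta libraries the value was below all WT values, but mta 2 lay above WT 2, so the genotypes overlapped. The log2 fold change was -0.15 with a 95% interval of -0.35 to 0.041 and did not pass (limma adjusted p = 0.229). Both RS40 and RS41 are known to take part in the making of microRNAs. RS31 (AT3G61860), whose alternative splicing is known to follow light and signals from the chloroplast, had 149.7, 157, 159 and 151 in WT and 129, 135, 136 and 181 in mta. Of the mta libraries, 3 lay below all WT libraries and mta 4 lay above all of them. The RS31 log2 fold change was -0.10 with a 95% interval of -0.36 to 0.16 (limma adjusted p = 0.565). Without mta 4 it was -0.21 and still did not pass (limma adjusted p = 0.0705).

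SR30 and SR34 belong to the subfamily that resembles the human splicing factor SRSF1. SR30 (AT1G09140), whose overexpression is known to change the splicing of SR34 and of its own transcript, had 119, 132, 139 and 116 in WT and 95.3, 119, 116 and 100.2 in mta. In mta 1, mta 3 and mta 4 the value was below all WT values, for mta 3 narrowly, and mta 2 lay level with WT 1 and above WT 4. Its log2 fold change of -0.23 had a 95% interval of -0.48 to 0.01 and did not pass (limma adjusted p = 0.147). SR34 (AT1G02840) had 260.1, 214, 220.4 and 224 in WT and 239.6, 209.6, 227 and 229.7 in mta. The genotypes overlapped, with a log2 fold change of -0.016 and a 95% interval of -0.23 to 0.19 (limma adjusted p = 0.921). On the linear scale that interval runs from 0.854 to 1.14 times the WT level, and with the authors' scaling alone the log2 fold change was -0.16 (SE 0.081).

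SCL33 and SCL30A belong to the SC35-like subfamily, which only plants have and whose proteins carry a charged extension before the RNA recognition motif. SCL33 (AT1G55310), which is known to bind its own pre-mRNA and alter its splicing, had 133, 119.8, 127 and 127 in WT and 140.0, 142, 151 and 142 in mta. Every mta library lay above every WT library, but the log2 fold change of 0.18 (95% interval -0.012 to 0.37) did not pass over all genes (limma adjusted p = 0.154). Without WT 1, mta 1 and mta 4, the libraries with the strongest trends along transcript length, SCL33 passed as higher in mta (log2 fold change 0.25, limma adjusted p = 0.029). With the authors' scaling alone its log2 fold change was 0.04 (limma adjusted p = 0.755).

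SCL30A (AT3G13570), known for a role in seed germination, had 173, 173, 160.2 and 169 in WT and 179, 165, 202 and 136 in mta. Both the highest and the lowest of the 8 values, mta 3 and mta 4, came from mta, and the means of the genotypes differed by less than the spread (log2 fold change -3.0e-04, 95% interval -0.26 to 0.26, limma adjusted p = 0.9988). SC35 (AT5G64200), the plant ortholog of the animal splicing factor SC35, had 200.4, 148, 141 and 173 in WT and 171, 157, 167 and 126 in mta. WT 1 was the highest and mta 4 the lowest, the other libraries overlapped, and the log2 fold change was -0.09 with a 95% interval of -0.39 to 0.21 (limma adjusted p = 0.668). Without single libraries it ranged from -0.16 to 0.0088, the highest without mta 4.

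RS2Z33 (AT2G37340) encodes a plant-specific SR protein with a pair of zinc knuckles. Its counts were 391, 274, 278 and 307 in WT and 291, 252, 276 and 245 in mta. WT 1 stood highest, mta 2 and mta 4 lay below all WT libraries, and mta 1 and mta 3 fell among them. The log2 fold change of -0.22 had a 95% interval of -0.49 to 0.053 and did not pass (limma adjusted p = 0.221), and it was -0.14 without WT 1. SR45 (AT1G16610) encodes a protein like human RNPS1, with a domain rich in arginine and serine on each side of its RNA recognition motif, and it joins the complex that sits on exon junctions. SR45 had 165, 163, 185 and 192 in WT and 231, 186, 203 and 158 in mta. The mta libraries held both the highest value, in mta 1, and the lowest, in mta 4, and the log2 fold change was 0.13 (95% interval -0.14 to 0.40, limma adjusted p = 0.48). It was 0.019 without mta 1, 0.062 without WT 1 and 0.23 without mta 4.

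**Figure D2:**
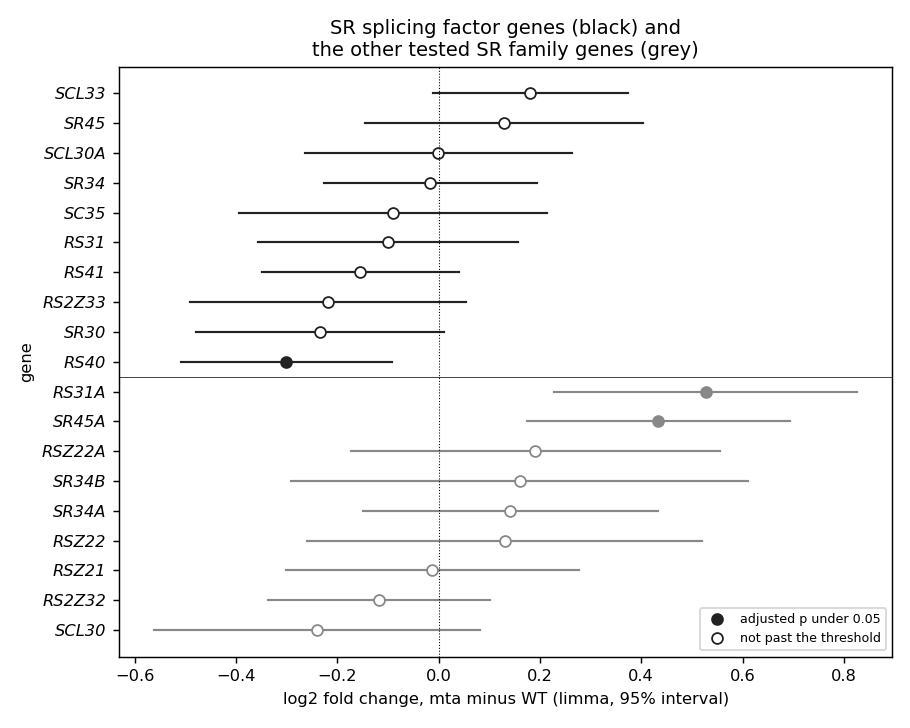
Log2 fold change of mta minus WT with its 95% interval from limma, for the 10 SR splicing factor genes (black) and the 9 other tested SR family genes (grey), with filled points past the adjusted p threshold. RS40 is filled on the lower side at -0.30, RS31A and SR45A are filled on the higher side at 0.53 and 0.43, and the intervals of the other genes cross 0.

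How many of the genes passed depended on the scaling between libraries. With the authors' scaling alone, which shifted the median over all tested genes on the log2 scale by -0.14, 4 of the 10 genes were called lower, RS40 (-0.44), SR30 (-0.37), RS2Z33 (-0.36) and RS41 (-0.30), at limma adjusted p-values of 0.00327, 0.0495, 0.0165 and 0.0408. In that setting 23.2% of all tested genes were called lower, and 71.8% of all calls were lower in mta, against 50.0% with the further scaling. With upper-quartile factors 0 of the 10 were called by limma, beside 25.9% of all tested genes in either direction and 10.3% as lower. SR45 changed sign with the authors' scaling (-0.012), as SR34 (0.041) and SCL30A (0.057) did with upper-quartile factors, and none of these passed. With libraries weighted by their fit (array weights), RS40 and RS31 passed as lower and SCL33 as higher (limma adjusted p of 0.00925, 0.0358 and 0.0134), as did 52.9% of all tested genes in either direction. At an unadjusted p under 0.05, RS40 alone passed with the scaling used throughout.

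Levels between genes were compared as normalised read counts per kb of the longest annotated transcript. In WT the order ran from RS40 at 344 ± 37.2 per kb (SD, n = 4) through RS2Z33 at 209 ± 36.2 and RS41 at 157 ± 10.11 to SR30 at 56.1 ± 4.76 and SCL33 at 52.9 ± 2.27. Neighbours in this order did not overlap among the WT libraries for RS40 and RS2Z33, RS2Z33 and RS41, RS41 and SCL30A, and SR45 and SR30. SCL30A (132 ± 4.84), RS31 (128 ± 4.01), SR34 (124 ± 11.2), SC35 (103 ± 16.8) and SR45 (88.4 ± 7.33) formed a run in which each overlapped the next, as SR30 did with SCL33. In mta the order began with the same 3 genes, at 278 ± 8.77, 178 ± 14.2 and 141 ± 7.89 per kb, and SCL33 (60.0 ± 2.15) had a higher mean than SR30 (47.7 ± 5.21). RS40 stood at the 91.5th percentile of all genes with a length in WT and SCL33 at the 59.0th. With the median annotated transcript length in place of the longest, the 3 leading genes kept their order, SR34 came before SCL30A and RS31, and SCL33 came before SR45 and SR30.

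**Figure D3:**
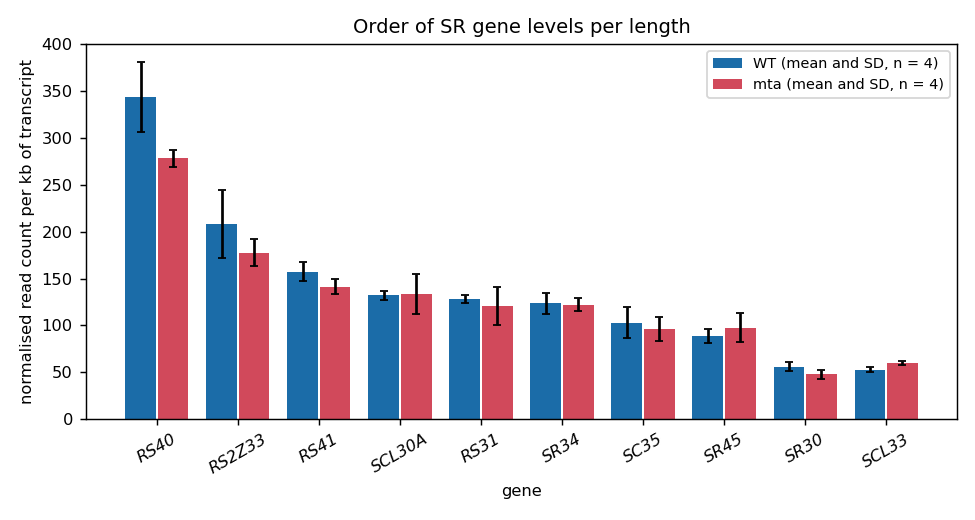
Normalised read count per kb of the longest annotated transcript, mean with SD over 4 libraries, for WT (blue) and mta (red), in the order of the WT means. RS40 leads in both genotypes, at 344 and 278, and SR30 and SCL33 are lowest.

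Summed over the 10 genes, the level per kb was 1395 ± 105 in WT and 1276 ± 42.5 in mta (SD, n = 4). The WT libraries spanned 1320.1 to 1548 and the mta libraries 1222 to 1318, without overlap but with the lowest WT library next to the highest mta library. The sums were taken with the scaling used throughout, and whether they stay apart with other scalings was not tested. RS40 made up 24.6% ± 0.864 of that sum in WT and 21.8% ± 0.807 in mta, and SCL33 3.80% ± 0.161 and 4.70% ± 0.149. With the other 10 genes of the family added, the sums were 2001 to 2527 in WT and 1943 to 2088 in mta, and the genotypes overlapped. These sums and shares are a description, since the genes were chosen together.

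Ratios of closely related genes within a library do not depend on the scaling between libraries. Trends of libraries along transcript length can still enter them where the genes differ in length. The longest annotated transcripts of SCL33 and SCL30A, for example, have 2399 and 1277 bases. The log2 ratio of RS40 over RS41 was 0.92, 0.84, 0.77 and 0.78 in the WT libraries and 0.75, 0.66, 0.74 and 0.58 in the mta libraries. All 4 mta ratios lay below all 4 WT ratios, although mta 1 came close to WT 3. The difference of the means was -0.15 on the log2 scale. Its two-sided exact permutation p was 0.0286, the smallest that 4 against 4 libraries allow. After adjustment over the 4 ratios tested it did not pass (adjusted p = 0.114). A ratio that alone reaches the smallest p cannot pass this adjustment, so the adjusted value does not show that the ratio was unchanged. RS40 had 1.77 times as many normalised reads as RS41 in WT and 1.60 times in mta.

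For SR30 over SR34 the log2 ratio was -1.12, -0.69, -0.66 and -0.94 in WT and -1.32, -0.81, -0.96 and -1.19 in mta. The genotypes overlapped, with a difference of -0.22 (exact permutation p = 0.229, adjusted p = 0.229). SCL33 over SCL30A gave -0.38, -0.53, -0.33 and -0.41 in WT and -0.35, -0.21, -0.41 and 0.052 in mta, with mta 4 the one library where SCL33 had the higher count, and did not pass (difference 0.18, exact permutation p = 0.2, adjusted p = 0.229). RS2Z33 over its relative RS2Z32 gave -0.02, -0.18, -0.19 and -0.094 in WT and -0.12, -0.31, -0.22 and -0.24 in mta, which overlapped as well (difference -0.10, exact permutation p = 0.143, adjusted p = 0.229).

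**Figure D4:**
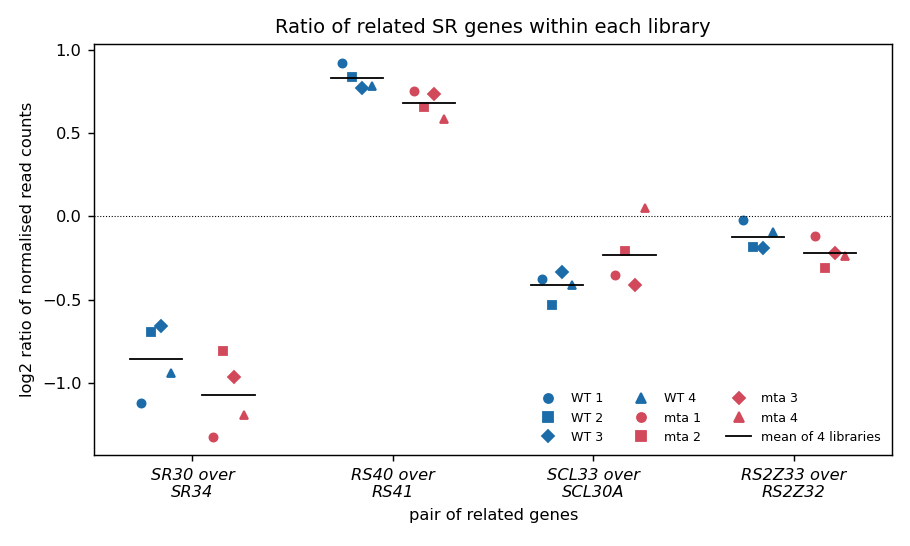
Log2 ratio of normalised read counts of related genes within each library, WT in blue and mta in red, with a black line at the mean of 4 libraries. For RS40 over RS41 the mta points lie below the WT points, at means of 0.68 and 0.83, and for the other 3 pairs the genotypes overlap.

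The libraries also differed within a genotype. WT 1 was the highest of the WT libraries for 7 of the 10 genes, whereas over all tested genes it was the highest for 37.8%. In WT 1, the slope of values along transcript length, relative to the mean of the libraries, was -0.177 on the log2 scale per doubling of length, and in mta 1 it was -0.208, while in mta 4 it was 0.210. Their part in the values of single libraries was not tested. With each library corrected for this trend, RS40 was again the only one of the 10 genes that passed (log2 fold change -0.32, limma adjusted p = 0.0225). In that setting 32.9% of all tested genes passed. Among the WT libraries, WT 2 and WT 3 were nearly alike. The chi-square per degree of freedom was 1.76 between them and 5.42 to 63.7 between all other libraries of the same genotype. It takes each step of the deposited values as 1 read, which is an assumption. With WT 2 and WT 3 averaged as 1 sample, the log2 fold change of RS40 was -0.33 and the call ended (limma adjusted p = 0.0625).

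The annotation gives several transcripts for most of these genes. RS40 has 8 annotated transcripts, RS41, SCL33 and SR45 have 7 each, RS2Z33 has 6, SR34 has 5, SR30 has 3 and SC35 has 2, and RS31 and SCL30A have 1. Of the 10 genes, 5 have at least 6 annotated transcripts, against 3.46% of all tested genes. RS40, RS41, RS2Z33 and SC35 overlap an annotated gene on the opposite strand. The overlapping neighbours of RS2Z33 and SC35 that were listed, ALS3 and AT5G64190, reached deposited values of 34.9 and 93.4, over stretches of 41 and 64 bases. The libraries are strand-specific, but whether counting used the strand is not given in the sources used here.

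The other 10 genes of the family were read in the same fit. SCL28 was listed in 2 libraries only and was not tested. Of the 9 tested, 2 rose, 0 fell and 7 did not pass, beside the 26.2% called among all tested genes, with a median log2 fold change of 0.14. RS31A (AT2G46610), the relative of RS31, had 31.3, 34.2, 34.96 and 28.7 in WT and 48.2, 39.2, 45.1 and 56.2 in mta. All mta libraries lay above all WT libraries, at a log2 fold change of 0.53 (SE 0.14, limma adjusted p = 0.0158). RS31A overlaps its neighbour AT2G46600, which is on the opposite strand and reached a deposited value of 727, by 35 bases. SR45A (AT1G07350), a stress-responsive relative of SR45, had 59.4, 50.1, 58.2 and 54.7 in WT and 72.3, 76.8, 87.6 and 65.8 in mta, again without overlap (log2 fold change 0.43, standard error 0.12, limma adjusted p = 0.0201).

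The RS31A call ended with the authors' scaling alone and without WT 4 (limma adjusted p = 0.0739 and 0.0568). That of SR45A ended with the authors' scaling alone (0.0667) and when WT 2, WT 4, mta 2 or mta 3 was left out (limma adjusted p between 0.0586 and 0.0679). The 7 genes that did not pass were SR34A (0.14), SR34B (0.16), RSZ21 (-0.012), RSZ22 (0.13), RSZ22A (0.19), SCL30 (-0.24) and RS2Z32 (-0.12), each with its log2 fold change. Single libraries moved several of these: without WT 1, SCL30 was -0.11, RS2Z32 -0.075 and RSZ22 0.30, RSZ22A was 0.058 without WT 2, and SR34A was 0.036 without mta 1. Without each library in turn SR34B ranged from 0.037 to 0.28 and RSZ21 from -0.12 to 0.059. RSZ22A passed as higher without WT 1, mta 1 and mta 4 (limma adjusted p = 0.0215) and with array weights (0.0181), and SCL30 and RS2Z32 passed as lower with the authors' scaling (0.0445 and 0.0335).

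SR proteins are phosphorylated by kinases of the LAMMER and SRPK types, which alter their location and activity. Of 9 such kinases and the nuclear importer MOS14, 1 rose, 1 fell and 8 did not pass, beside 26.2% of all tested genes that passed (median log2 fold change 9.6e-04). AFC2, a LAMMER kinase, rose from 337 ± 16.2 to 419 ± 19.2 (log2 fold change 0.32, limma adjusted p = 0.0184), and SRPK4 fell from 140.5 ± 1.93 to 114 ± 4.91 (log2 fold change -0.30, limma adjusted p = 0.0245). For each of these genes the genotypes did not overlap. Under the authors' scaling the AFC2 call ended (log2 fold change 0.17, limma adjusted p = 0.212), as it did when WT 3, WT 4, mta 2 or mta 3 was left out (0.0525 to 0.0616). That of SRPK4 ended when WT 2, WT 3, WT 4, mta 2 or mta 3 was left out (limma adjusted p between 0.0536 and 0.0712), with upper-quartile factors (0.0581), and with WT 2 and WT 3 averaged (0.0623).

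Among 13 genes of splice site recognition, 0 rose, 1 fell and 12 did not pass, beside 13.1% of all tested genes that passed as lower, with a median log2 fold change of -4.3e-04. The 1 that fell was U1A, a protein of the U1 particle, from 112 ± 13.9 to 84.9 ± 3.34 (log2 fold change -0.39, limma adjusted p = 0.0217). Leaving out WT 4, mta 2 or mta 3 ended that call (limma adjusted p of 0.0597 to 0.0718). In the list of SR45 partners, exon junction and nonsense-mediated decay genes, 0 of 11 rose, 2 fell and 9 did not pass, again beside 13.1% of all tested genes that were lower (median -0.19). EIF4A3 fell from 376 ± 20.6 to 296 ± 15.0 and MAGO from 376 ± 56.5 to 262 ± 41.3, both core proteins of the exon junction complex (log2 fold changes -0.34 and -0.52, limma adjusted p = 0.0141 and 0.0182). Leaving out mta 2 ended both calls (limma adjusted p of 0.0519 and 0.0623), leaving out mta 3 that of EIF4A3 (0.0532), and leaving out WT 4 that of MAGO (0.0573). Of 10 hnRNP-type regulators, which often act against SR proteins, 0 rose, 1 fell and 9 did not pass, beside the same 13.1% (median log2 fold change 0.0059). UBP1B, a binder of uridine-rich RNA, fell from 318 ± 12.2 to 231 ± 10.6 (log2 fold change -0.46, limma adjusted p = 0.00242) and remained called in all 20 alternative settings.

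Among genes outside these lists, the profiles most like that of RS40 over the 8 libraries were those of AT3G10020 (Pearson's r = 0.992), the Rab GTPase gene RABA5b (0.990) and AT4G16442 (0.988), on the log2 scale. All 3 were highest in WT 1, as RS40 was, and their r with RS40 after removing the genotype means was 0.973 to 0.981. The points share their libraries and the trends of those libraries along transcript length. The log2 fold changes of the 3 genes were -0.59, -0.81 and -0.51.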

How the data were processed

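Polyadenylated leaf RNA was measured in 8 strand-specific libraries. Per the submitters' processing notes, STAR 2.4.0, HTSeq and DESeq2 were used with build TAIR10, in an order and with settings not given in the sources used here. The deposited signal is 1 value per gene and library, without rows below 1. In every library 100% of the values were whole multiples of 1 step (within 0.02 of a step plus rounding), as if the authors had divided counts by a factor of 2.73 to 3.98, which gives 17132896 to 25377346 reads in genes if a step is 1 read. Reads with no feature (4.92 to 5.97% of a library), ambiguous (0.359 to 0.406%) or aligned more than once (6.06 to 9.07%) were left out, so a gene with a near-identical copy can lose reads.

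Unlisted genes were set to 0. The 18328 of 20690 genes whose deposited value was 3 or more in 4 or more libraries were scaled by trimmed mean of M values factors (trims 0.3 and 0.05), and limma 3.58.1 (R 4.3.3) was run on log2(value + 1) with genotype alone in the model and a trend of variance on mean. Log2 fold changes are mta minus WT on that scale, which understates changes of low genes, and p-values were adjusted over all 18328 genes by the Benjamini-Hochberg method at 0.05. The fit was also run on simulated data. These held no trends along transcript length, no outlying library and no near-alike libraries, so they do not show how the fit handles such features. Alternatives were other scalings, filters, pseudocounts, array weights, a replicate block, a length correction, and libraries averaged or left out. Count models planned on the steps were not run, as the values are normalised. Ratios were compared by exact permutation over 70 assignments (SciPy 1.17.1). Figures were drawn with matplotlib 3.10.9.

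The members, lists, tests and alternatives were chosen with earlier results of these data known. The text names the 10 members, the 10 other family genes, MTA, ABI3, up to 3 called genes of each other list with the smallest adjusted p, and the 3 genes most like the member of smallest adjusted p. Names, transcript numbers and lengths are those of NCBI's TAIR10.1 annotation (20582 of 20690 identifiers matched). As that build is not the one named in the notes, no coordinates or sequences are given.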

Additional observations from a re-analysis of the deposited data

Results flagged for a closer look

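Among 66 groups of 4 values (each named gene or ratio in each genotype), 8 held 1 library far from the other 3 by Dixon's criterion. Chance would give that in about 1 of 20 independent groups. These groups are not independent, since the ratios reuse named genes and 3 genes were picked for following RS40. The total of 8 is therefore not read against that rate. WT 1 was the outlying library in 6 of the 8, and 3 of these 6 were the genes picked for following RS40. For RS40 it had a normalised read count of 808 against 653 to 663 in the other WT libraries. RSZ22 stood at 218 in WT 1 against 118 to 133, and SCL30 at 413 against 249 to 275. The genes most like RS40 were high in WT 1 as well, AT3G10020 at 4658 against 2824 to 2878, RABA5b at 49.5 against 29.8 to 31.5 and AT4G16442 at 81.7 against 54.8 to 56.2. They were selected for following RS40, so they are not separate from it.

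In mta, RS31 reached 181 in mta 4 against 129 to 136 in the other mta libraries, and SR34A reached 229 in mta 1 against 179.5 to 187.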

How the results depend on the processing

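All genes gave 4804 calls, 2401 higher and 2403 lower. Array weights gave 9688 (4583 and 5105), leaving out WT 1, mta 1 and mta 4 gave 8291 (3965 and 4326), the authors' scaling alone gave 4249 lower, and leaving out each library in turn gave 3154 to 6514 (1619 to 3155 higher and 1535 to 3359 lower). Against 1 of the 10 SR genes called, lower, there were 4 (4 lower) with the authors' scaling, 3 with array weights (RS40 and RS31 lower, SCL33 higher, so 2 and 1), 2 without WT 1, mta 1 and mta 4 (1 higher, 1 lower), 0 with upper-quartile factors, the replicate block or WT 2 and WT 3 averaged (0 lower in each), and 0 to 1 without each library in turn. The share of all tested genes called was 26.2% in the main fit, 32.3% with the authors' scaling and 52.9% with array weights. It was 46.4% without WT 1, mta 1 and mta 4, 25.9% with upper-quartile factors and 24.6% with the replicate block. With WT 2 and WT 3 averaged it was 19.2%, and without each library in turn 17.4 to 35.9%. RS40 was lower in all 20 alternatives, from -0.44 to -0.17, and called in 12, with limma adjusted p-values of 0.00327 to 0.0866. The causes were not tested.

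With the replicate block, 4503 genes were called and the calls of RS40 and SRPK4 ended (limma adjusted p = 0.0627 and 0.0577). Deviations of same-numbered libraries correlated at -0.35 to 0.47. WT 1 and mta 1 correlated best with each other and mta 2 best with WT 2, while the other 5 libraries correlated best with another number. These values do not settle whether the numbers pair the libraries. The ratio differences under the block equal those without it, with exact sign-flip p-values of 0.125, the smallest that 4 pairs allow, for all ratios but SCL33 over SCL30A (0.375). No ratio changed direction in its 14 alternatives, and none passed. With 3 libraries against 4 the smallest exact p is above the threshold, so these refits say nothing about stability. With 4 against 4, 1 ratio alone at the smallest exact p cannot pass the adjustment over 4 ratios.

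Some differences near 0 that did not pass changed sign. With upper-quartile factors SR34 was 0.041, SCL30A 0.057 and RSZ21 0.044. With array weights SR34 was 0.016, SCL30A 0.13, SC35 0.090, SR34B -0.021 and RSZ21 0.082. Without WT 1, mta 1 and mta 4 SR34 was 0.0098, SCL30A 0.14, SC35 0.095, RSZ21 0.049 and RS2Z32 0.011. With median-of-ratios factors SCL30A was 0.014 and RSZ21 0.0015, with a filter of at least 10 they were 0.014 and 0.0016, and with a pseudocount of 5 SCL30A was 1.9e-05. With the authors' scaling SR45 was -0.012 and RSZ22 -0.011. Without single libraries, SR34 ran from -0.066 to 0.022, SCL30A from -0.084 to 0.10, SC35 from -0.16 to 0.0088 and RSZ21 from -0.12 to 0.059. Count models planned on the whole steps were not run, since the deposited values are normalised. Standard errors of the 10 SR genes were 0.0877 to 0.138 on the log2 scale, and log2 differences as large as -0.23 (SR30) and 0.18 (SCL33) did not pass with 4 libraries a genotype.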
